A study of Homo sapiens with 12 samples.

Results

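The 10 genes described here belong to the methionine cycle and to transsulfuration or are related to their genes, namely MAT1A, MAT2A, MAT2B, GNMT, AHCY, AHCYL1, BHMT, CBS, CTH and CDO1. They were taken by name, through their Ensembl identifiers, from the 57500 genes of each count file, and all 10 were found. The data were RNA sequencing read counts of HepG2, a cell line from a human liver carcinoma, in 12 libraries and 3 groups of 4 replicates. Wild-type control cells (WT) were compared with cells in which thiosulfate sulfurtransferase (TST) was silenced by an shRNA (shTST) and with cells that overexpress TST (overTST). TST moves a sulfur atom from thiosulfate to cyanide, which gives thiocyanate, and the question was how the transcriptome changes when this step is lowered or raised.

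All 3 groups had been kept in culture medium with 400 µM glycine for 24 h before RNA extraction. The shTST and overTST cells were made by lentiviral transduction and selected with blasticidin, and no source used here describes single-cell cloning. The TST coding sequence of the overTST cells was codon-optimized and driven by the CMV promoter. WT is described as wild-type, and neither the labels nor the methods name a vector or a selection for it, so the effects of transduction and selection cannot be told apart from those of the TST level. The 4 replicates of a group are described as independent, which the study's methods define in general as work on separate days. The labels do not say that a replicate number marks a day.

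The methionine cycle turns methionine into S-adenosylmethionine (SAM), the methyl donor of most cellular methylation. Use of the methyl group leaves S-adenosylhomocysteine, which is split into adenosine and homocysteine, and homocysteine is either methylated back to methionine or sent through transsulfuration to cysteine. In the liver this route feeds glutathione, taurine and sulfide production, and adult hepatocytes rely on the MAT1A-encoded SAM synthetase while proliferating and transformed liver cells also use the MAT2A-encoded form.

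Total counts were 28866175 to 45120508 in WT, 27527854 to 33865386 in shTST and 22911380 to 27414142 in overTST. Every overTST library was thus shallower than every WT and every shTST library. Depth cannot be told apart from the overTST condition, against WT or in the direct comparison with shTST. Mitochondrial transcripts took 6.91 to 11.98% of the counts in WT, 6.84 to 8.65% in shTST and 10.8 to 11.7% in overTST, so that shTST and overTST did not overlap, and the part of this share in the direct comparison was not tested. The targeted gene had 47.2 to 52.8 CPM (read counts relative to library sizes scaled by the TMM method over the 12 libraries) in WT, 33.0 to 36.6 in shTST and 51.8 to 62.1 in overTST. TST was called lower in shTST (log2 fold change −0.52, adjusted p = 3.2e-06) and higher in overTST (0.24, adjusted p = 0.00384, edgeR's quasi-likelihood test for both), and the latter call was lost when the trend of the counts with gene length was removed (0.10, adjusted p = 0.201). How many reads of the codon-optimized sequence were counted on the TST gene is not stated. All 8 hepatocyte and hepatoma markers examined were expressed, with a summed level of 15500 to 18700 CPM in WT, 17880 to 22120 in shTST and 16340 to 21310 in overTST. In shTST 4 of them were called higher and 1 lower (ALB, log2 0.39, TTR, log2 −0.33), in overTST 2 higher and 1 lower, and in shTST against overTST 5 higher and 1 lower, and their part in the results below was not tested. The 8 markers of leukocytes, endothelium and fibroblasts summed to at most 7.05 CPM in any library, with PTPRC and CD3E at 0 in all WT and overTST libraries and no marker at 0 throughout shTST. PECAM1, of endothelium, was the marker of these called, higher in overTST than in WT (3.28 against 2.14 CPM, log2 0.60). It was also called lower in shTST than in overTST (1.61 against 3.28 CPM, log2 −1.02), and its part in the results was not tested either.

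Levels of the 10 genes spanned more than 2 orders of magnitude, and AHCY, which splits S-adenosylhomocysteine, stood highest. Levels between genes are given as RPKM, the CPM divided by the exonic length in kilobases. In WT, AHCY reached 201 ± 7.02 RPKM (SD, n = 4), followed by MAT1A with 38.7 ± 1.56, AHCYL1 with 23.9 ± 1.28 and MAT2A with 17.2 ± 0.777. No ranges of neighbours in this upper part of the order overlapped in WT. MAT2B (6.68 ± 0.396 RPKM), GNMT (4.55 ± 0.498) and CTH (3.66 ± 0.309) came next, again without overlap between neighbours. At the lower end, BHMT (1.41 ± 0.0879 RPKM) overlapped with CDO1 (1.36 ± 0.232), and CDO1 overlapped with CBS (0.964 ± 0.133). The CBS level is uncertain, since most of its sequence also occurs in the copy CBSL. Its place in the order also depends on the length used, and an order by another length was not computed. The exonic length of CBS is 6786 bases and its longest coding transcript has 2605. For BHMT these are 3519 and 2502 bases, and for CDO1 2189 and 1860.

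The order changed little between the groups. In shTST, AHCYL1 (22.0 RPKM) and MAT2A (19.96) overlapped, as did MAT2B (6.71) and GNMT (6.45), both pairs that were separate in WT. In overTST, CBS (1.06 RPKM) stood above CDO1 (0.826), the reverse of WT, with overlapping ranges.

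**Figure D1:**
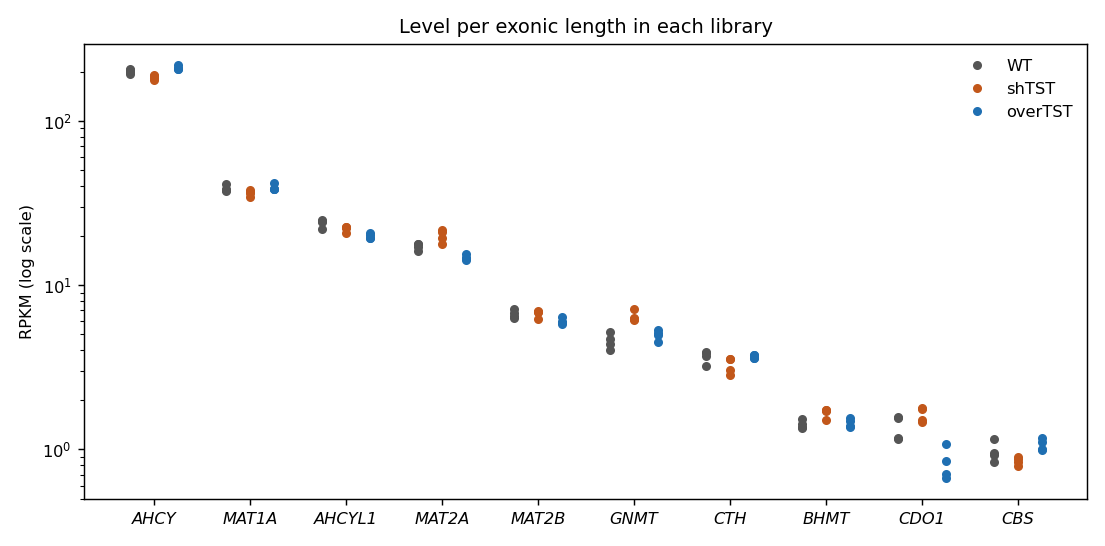
Level of each of the 10 genes per exonic length in each of the 12 libraries, as RPKM on a log axis, with the genes in their WT order and each point 1 library (grey WT, orange shTST, blue overTST). The WT mean is 201 RPKM for AHCY and 0.964 RPKM for CBS, and the spread between groups is small beside the spread between genes. At CDO1 the overTST libraries lie below those of the other groups.

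Compared with WT, TST silencing went with higher MAT2A and GNMT, and TST overexpression with lower MAT2A, AHCYL1 and CDO1. A gene is called here when its p from edgeR's quasi-likelihood test, adjusted by Benjamini-Hochberg over all genes tested, is 0.05 or less. All 10 genes passed the filter on low counts in every comparison. In shTST against WT, 2 of the 10 were called, both higher, beside 16.1% of all 14584 genes tested (6.69% higher, 9.4% lower). In overTST against WT, 3 of the 10 were called, all lower, beside 33.9% of 14421 genes (15.7% higher, 18.2% lower). Both counts are near what those shares give, so they are no result about the 10 genes as a group. The groups did not overlap for 2 of the 10 in shTST (19.1% of all genes) and for 3 in overTST (30.4%). The median log2 fold change of the 10 was −0.04 in shTST and 0.01 in overTST, against 0.00 for all genes in both.

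The lines were also compared directly, in a fit of all 12 libraries. There 7 of the 10 genes were called, 5 higher in shTST (MAT2A, MAT2B, GNMT, AHCYL1, CDO1) and 2 lower (AHCY, CBS), beside 33.0% of 14883 genes (16.9% higher, 16.1% lower). The groups did not overlap for 8 of the 10, beside 29.2% of all genes, and the median log2 fold change of the 10 was 0.15 against 0.00. These 3 comparisons share libraries, so the direct comparison is not separate evidence for a change seen against WT.

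**Figure D2:**
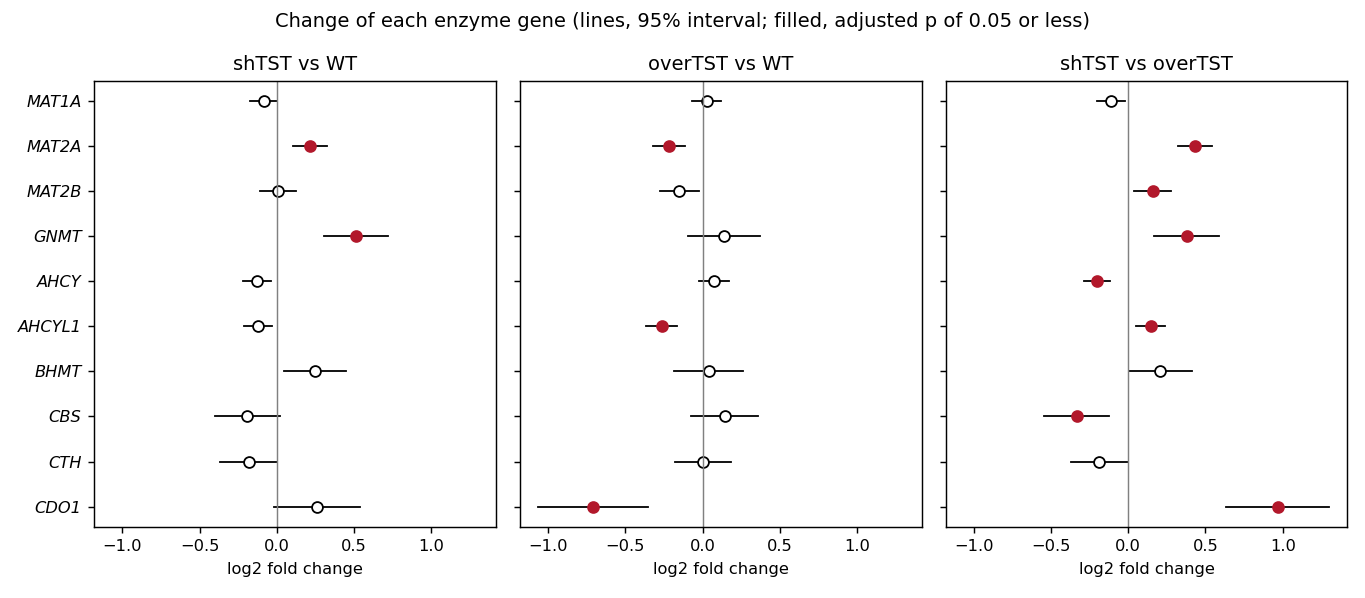
Log2 fold change of each of the 10 genes (x axis) in shTST against WT, overTST against WT and shTST against overTST, with lines for the 95% interval and filled points for an adjusted p of 0.05 or less. CDO1 has the lowest value in overTST (−0.71) and GNMT the highest in shTST (0.52), and the MAT2A point lies on opposite sides of 0 in the 2 comparisons with WT.

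MAT2A encodes the catalytic subunit of the SAM synthetase found in most tissues and in proliferating hepatocytes. It lies on chromosome 2 (chr2:85539165-85545280, plus strand, GRCh38). Its level was 80.02, 72.4, 76.7 and 79.5 CPM in the WT replicates 1 to 4, 97.0, 79.3, 87.4 and 94.6 CPM in shTST, and 69.6, 63.8, 65.9 and 66.0 CPM in overTST. All overTST libraries lay below all WT libraries, and 3 of the 4 shTST libraries lay above every WT library while replicate 2 fell among them.

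MAT2A rose by 16.2% in shTST (log2 fold change 0.22, SE 0.056, adjusted p = 0.0109 by edgeR) and fell by 14.0% in overTST (log2 −0.22, SE 0.053, adjusted p = 0.00263). Directly compared, shTST was 35.0% above overTST (log2 0.43, 95% interval 0.32 to 0.54, adjusted p = 4.78e-06). Without shTST replicate 1 the call against WT was lost, at log2 0.18 and an adjusted p of 0.0522. Of the MAT2A exons, 558 bases (12.4%) overlap those of GGCX, a vitamin K-dependent carboxylase gene on the opposite strand, and whether the counting used strand is not stated. GGCX itself was called lower in shTST (log2 −0.16) and in overTST (log2 −0.21), so that the overlapping genes had opposite signs in shTST and the same sign in overTST. The part of the shared bases in the MAT2A values was not tested.

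The MAT2A transcript is known for hairpins in its 3′ UTR that the RNA methyltransferase METTL16 binds and methylates, which tie the stability and splicing of the message to the SAM level. Because this is the regulated end of the gene that rose and fell here, the stretches around the METTL16 target letters are shown. A search of the 2819-base GENCODE 29 transcript ENST00000306434 for TACAGANAA on the transcript strand found 6 matches, all after the coding sequence. The 29 bases around each are given 5′ to 3′ on the plus strand of GRCh38, with the match in capitals:
MAT2A site 1, chr2:85543802-85543830: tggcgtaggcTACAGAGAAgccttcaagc
MAT2A site 2, chr2:85544589-85544617: tgtgatgtcaTACAGAGAAgtcacagggc
MAT2A site 3, chr2:85544774-85544802: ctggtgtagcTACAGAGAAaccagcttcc
MAT2A site 4, chr2:85544889-85544917: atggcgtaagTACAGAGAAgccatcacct
MAT2A site 5, chr2:85545004-85545032: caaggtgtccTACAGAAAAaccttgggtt
MAT2A site 6, chr2:85545112-85545140: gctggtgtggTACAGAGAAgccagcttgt
Matches 1 to 4 and 6 read TACAGAGAA and match 5 reads TACAGAAAA. Of the longest transcripts of 14833 expressed genes, 11.5% held at least 1 match and 3 (0.0202%) held 6 or more. A match is a stretch of letters, not a measured binding site. METTL16 itself stood at 37.2 CPM in WT, 39.3 in shTST and 35.7 in overTST and was not called in any comparison (adjusted p = 0.37, 0.485 and, directly, 0.0676, edgeR).

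MAT1A encodes the catalytic subunit of the SAM synthetases typical of differentiated hepatocytes (chr10:80271820-80289684, minus strand). Its CPM were 139, 140, 151 and 141 in WT, 137, 127, 139 and 135 in shTST, and 142, 155, 143 and 143 in overTST. The shTST libraries overlapped with WT, as did the overTST libraries, while every shTST library lay below every overTST library. MAT1A was not called in shTST (log2 −0.09, 95% interval −0.17 to 0.00, adjusted p = 0.196), in overTST (log2 0.03, −0.07 to 0.12, adjusted p = 0.723) or directly (log2 −0.11, −0.20 to −0.02, adjusted p = 0.0638 by edgeR, 0.0417 by DESeq2). The direct adjusted p went up to 0.293 among the alternatives and up to 0.223 with 1 library left out (edgeR).

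MAT2B encodes the regulatory subunit of the MAT2A enzyme (chr5:163503114-163519336, plus strand). It had 37.0, 32.2, 33.6 and 34.9 CPM in WT, 35.3, 35.1, 31.9 and 35.9 in shTST and 32.8, 30.6, 30.8 and 29.7 in overTST. Values overlapped between all groups. MAT2B was not called in shTST (log2 0.01, 95% interval −0.11 to 0.12, adjusted p = 0.947) or in overTST (log2 −0.15, −0.28 to −0.03, adjusted p = 0.0709). It was called higher in shTST than in overTST by a narrow margin (log2 0.16, SE 0.060, adjusted p = 0.0451), and this call was lost with limma-voom (adjusted p = 0.0573), with upper-quartile scaling (0.0592), with no filter (0.0545), with the gene length trend removed (0.119, and 0.0906 with the replicate block added), and without shTST replicate 1, 2 or 4 or overTST replicate 2, 3 or 4, where adjusted p reached 0.127.

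The level of MAT1A relative to MAT2A was separate in all 3 groups. The MAT1A to MAT2A ratio of RPKM was 2.11, 2.36, 2.40 and 2.16 in the WT libraries, 1.72, 1.95, 1.94 and 1.73 in shTST, and 2.48, 2.95, 2.63 and 2.63 in overTST. No pair of groups overlapped, with shTST lowest, WT between and overTST highest, and MAT1A exceeded MAT2A per length in every library. This ratio was given without a test because its parts are tested above.

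**Figure D3:**
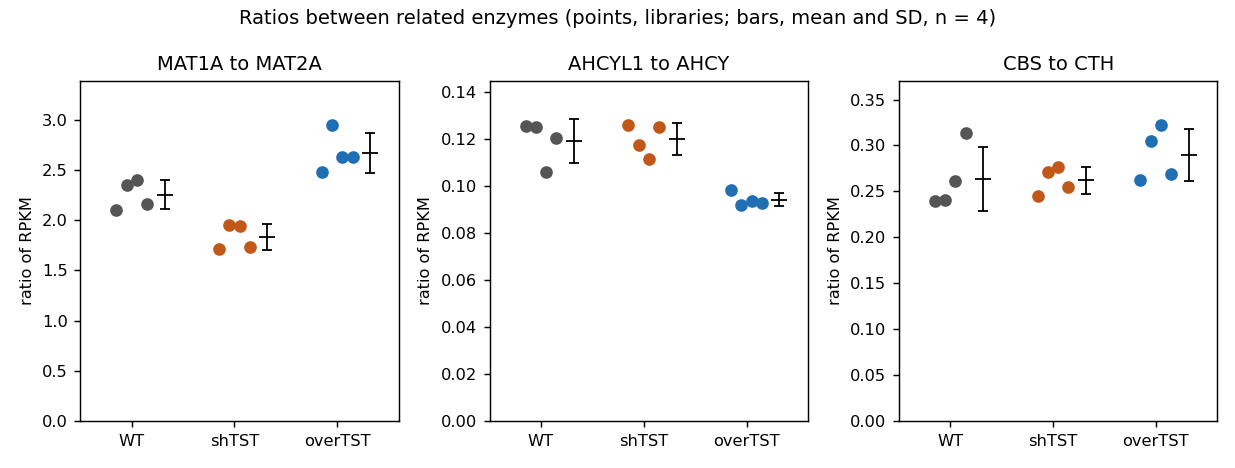
Ratios of RPKM between related genes in each library (points) with the mean and SD of each group (bars, n = 4), on linear axes from 0. The MAT1A to MAT2A ratio is separate in all 3 groups, the AHCYL1 to AHCY ratio of overTST (0.0917 to 0.0981) lies below the other groups, and the CBS to CTH ratio overlaps in all groups.

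GNMT encodes glycine N-methyltransferase, an abundant liver enzyme that spends SAM to make sarcosine from glycine and buffers the SAM to S-adenosylhomocysteine ratio (chr6:42960758-42963880, plus strand). Its CPM were 5.54, 4.28, 5.03 and 4.66 in WT, 6.66, 6.60, 7.65 and 6.77 in shTST and 4.81, 5.51, 5.33 and 5.73 in overTST. All shTST libraries lay above all libraries of both other groups, and WT and overTST overlapped. These values rest on 126 to 264 reads per library, a counting error of 6.15 to 8.91% in each.

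GNMT rose by 42.9% in shTST against WT (log2 0.52, SE 0.11, adjusted p = 0.00213) and stood 30.0% higher in shTST than in overTST (log2 0.38, SE 0.11, adjusted p = 0.00805, edgeR). It was not called in overTST against WT (log2 0.14, 95% interval −0.10 to 0.37, adjusted p = 0.405), where the sign turned with the gene length trend removed (−0.04). GNMT shares 11 exonic bases with PEX6 on the opposite strand, which was not called in any comparison.

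AHCY encodes S-adenosylhomocysteine hydrolase, the enzyme that removes this inhibitor of methyltransferases (chr20:34280268-34311802, minus strand). It had 770, 752, 812 and 800 CPM in WT, 687, 743, 727 and 707 in shTST and 822, 857, 807 and 810 in overTST. All shTST libraries lay below all WT and all overTST libraries, and WT and overTST overlapped. AHCY missed the threshold in shTST against WT (log2 −0.13, 95% interval −0.22 to −0.04, adjusted p = 0.0536 by edgeR), where DESeq2 gave 0.0147, limma-voom 0.0256 and the fit without the gene length trend 0.0412. Other alternatives went the other way, with an adjusted p of up to 0.124, and up to 0.192 with 1 library left out (edgeR). It was not called in overTST against WT (log2 0.07, −0.02 to 0.17, adjusted p = 0.269). Directly compared, AHCY was lower in shTST than in overTST (−13.1%, log2 −0.20, SE 0.045, adjusted p = 0.00101).

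AHCYL1 encodes an AHCY-like protein, also known as IRBIT, that lacks hydrolase activity and regulates ion transporters and inositol trisphosphate receptors (chr1:109984686-110023741, plus strand). Its CPM were 127, 123, 113 and 126 in WT, 113, 115, 106 and 116 in shTST and 106, 103, 99.2 and 98.6 in overTST. The overTST libraries lay below all others, and shTST overlapped with WT. AHCYL1 fell by 16.8% in overTST (log2 −0.27, SE 0.052, adjusted p = 0.00033) and was not called in shTST (log2 −0.12, 95% interval −0.21 to −0.03, adjusted p = 0.0832). Directly compared it was higher in shTST (log2 0.15, SE 0.048, adjusted p = 0.0217), a call lost with the gene length trend removed (adjusted p = 0.0687) and without shTST replicate 1, 2 or 4 or overTST replicate 3 or 4, where adjusted p reached 0.0704.

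The level of AHCYL1 relative to AHCY was lowest in overTST. The AHCYL1 to AHCY ratio of RPKM was 0.125, 0.125, 0.106 and 0.120 in WT, 0.126, 0.118, 0.111 and 0.125 in shTST and 0.0981, 0.0917, 0.0936 and 0.0927 in overTST. The overTST libraries lay below all others, and WT and shTST overlapped.

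BHMT encodes the betaine-dependent enzyme that returns homocysteine to methionine in liver and kidney (chr5:79111779-79132290, plus strand). It had 4.71, 4.79, 4.99 and 5.40 CPM in WT, 6.05, 5.33, 6.09 and 6.07 in shTST and 5.41, 4.87, 5.25 and 4.82 in overTST. In shTST, 3 libraries lay above every WT library and replicate 2 fell among them. BHMT was not called in shTST (log2 0.25, 95% interval 0.05 to 0.45, adjusted p = 0.104), in overTST (log2 0.04, −0.18 to 0.26, adjusted p = 0.826) or directly (log2 0.21, 0.00 to 0.41, adjusted p = 0.13, edgeR). Of its exonic bases 6.79% overlap DMGDH on the opposite strand, and 2.79% of the 100-base stretches of its longest coding transcript also occur in BHMT2. DMGDH was called higher in shTST than in overTST (log2 0.30, adjusted p = 0.022, edgeR) and was not called against WT in either line. The part of the shared bases in the BHMT values was not tested.

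CBS and CTH encode the enzymes that carry homocysteine through cystathionine to cysteine and that can also release hydrogen sulfide. CBS (chr21:43053191-43076943, minus strand) had 6.24, 6.39, 5.70 and 7.82 CPM in WT, 5.87, 5.63, 5.33 and 6.11 in shTST and 6.72, 7.46, 7.90 and 6.82 in overTST. All shTST libraries lay below all overTST libraries, and both groups overlapped with WT. The CBS level is uncertain, because 92.4% of the 100-base stretches of its longest coding transcript occur unchanged in CBSL, a near-identical copy on the same chromosome that had 0 to 2 reads per library, and how reads with several matches were counted is not stated.

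CBS was not called in shTST (log2 −0.19, 95% interval −0.40 to 0.02, adjusted p = 0.235) or in overTST (log2 0.14, −0.07 to 0.36, adjusted p = 0.344). Directly compared it was lower in shTST (−20.7%, log2 −0.33, SE 0.11, adjusted p = 0.0176), and with CBSL reads added log2 was −0.34. This call was lost without shTST replicate 3 (log2 −0.30, adjusted p = 0.0529) and without overTST replicate 3 (log2 −0.29, adjusted p = 0.0695).

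CTH (chr1:70411218-70439851, plus strand) had 9.26, 9.44, 7.78 and 8.86 CPM in WT, 8.52, 7.37, 6.87 and 8.53 in shTST and 9.11, 8.68, 8.73 and 9.001 in overTST. WT overlapped with both lines, and the shTST libraries lay below the overTST libraries. CTH was not called in shTST (log2 −0.18, 95% interval −0.37 to 0.00, adjusted p = 0.202), in overTST (log2 0.00, −0.18 to 0.19, adjusted p = 0.982) or directly (log2 −0.19, adjusted p = 0.136, edgeR). The CBS to CTH ratio of RPKM was 0.240 to 0.314 in WT, 0.245 to 0.276 in shTST and 0.262 to 0.322 in overTST, with overlap between all groups.

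CDO1 encodes cysteine dioxygenase, which oxidizes cysteine to cysteine sulfinate and so draws it towards taurine and sulfate (chr5:115804733-115816954, minus strand). It had the largest change of the 10 genes. Its CPM were 3.44, 2.57, 3.40 and 2.51 in WT, 3.90, 3.18, 3.28 and 3.85 in shTST and 1.46, 1.86, 2.37 and 1.55 in overTST. All overTST libraries lay below all WT and all shTST libraries, and WT and shTST overlapped.

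CDO1 fell by 38.8% in overTST (log2 −0.71, SE 0.18, adjusted p = 0.00378 by edgeR) and was not called in shTST against WT (log2 0.26, 95% interval −0.02 to 0.54, adjusted p = 0.224). Directly compared, shTST exceeded overTST by 95.6% (log2 0.97, 95% interval 0.63 to 1.30, adjusted p = 0.000118). It was also the gene with the fewest reads, 34 to 60 in overTST against 82 to 117 in WT and 95 to 116 in shTST, so that the counting error of a single overTST library was 12.9 to 17.1%. CDO1 remained called without each library in turn, with log2 between −0.87 and −0.61 in overTST against WT. In these bulk libraries, fewer cells that express a gene and less RNA of it per cell cannot be told apart.

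**Figure D4:**
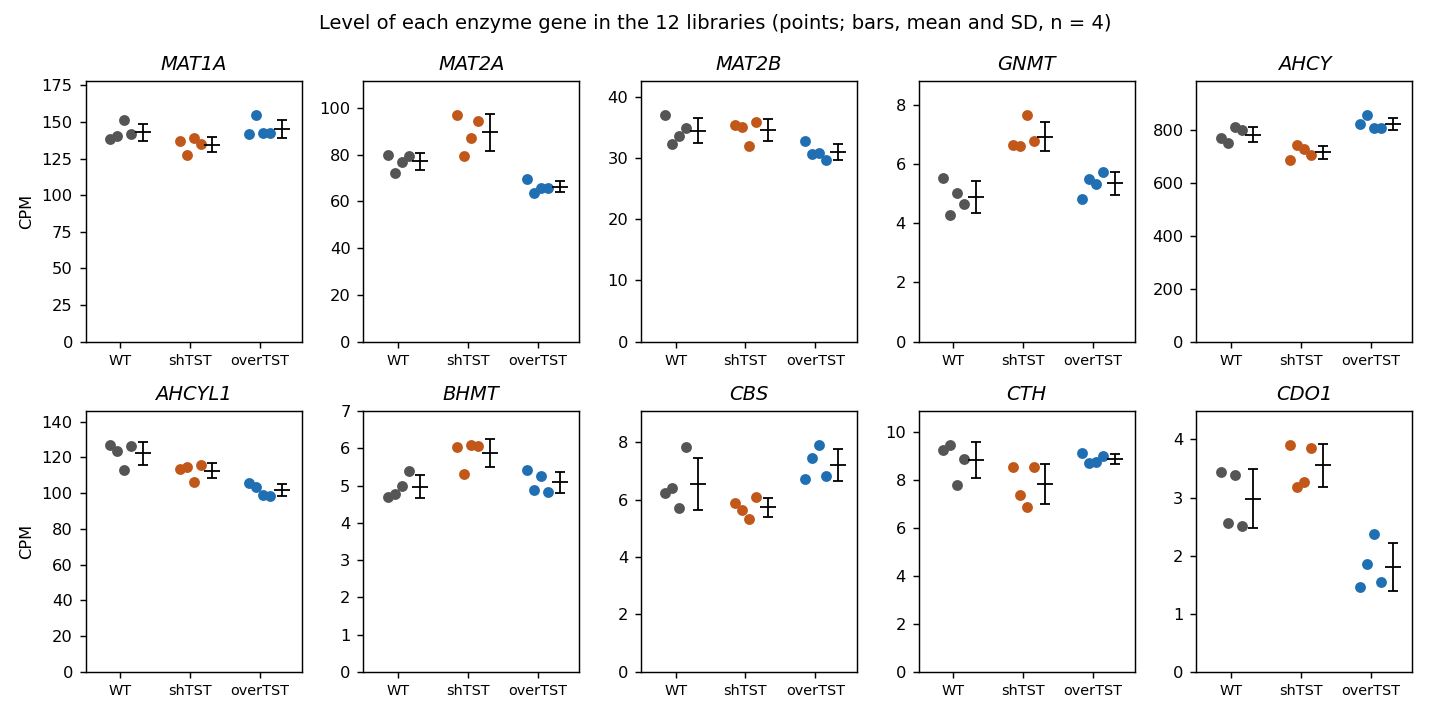
CPM of each of the 10 genes in every library (points, replicates 1 to 4 from left to right in each group) with the mean and SD (bars, n = 4), on linear axes that start at 0 and differ between panels. GNMT in shTST lies above the other groups, MAT2A, AHCYL1 and CDO1 in overTST lie below, and MAT1A, MAT2B, BHMT, CBS and CTH overlap with WT in both lines.

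Promoters are shown for the 4 genes called against WT. Those of AHCY, MAT2B and CBS, which were called only between shTST and overTST, are not printed. Each runs from 250 bases before to 50 bases after the gene's start in RefSeq (GRCh38.p14), 5′ to 3′ on the strand of the gene. All 10 genes had a promoter in this table. Both strands were searched for 6 motifs, and matches are in capitals. The TATA box was searched as TATAAA and the box named CCAAT by those letters. The GC box was searched as GGGCGG. The E-box was searched as CACGTG. The core of the antioxidant response element was searched as TGANNNNGC, and the C/EBP-ATF response element as TGATGNAA. No match to 1 motif overlapped a match to another in the promoters printed:
MAT2A promoter, chr2:85538918-85539217, + strand: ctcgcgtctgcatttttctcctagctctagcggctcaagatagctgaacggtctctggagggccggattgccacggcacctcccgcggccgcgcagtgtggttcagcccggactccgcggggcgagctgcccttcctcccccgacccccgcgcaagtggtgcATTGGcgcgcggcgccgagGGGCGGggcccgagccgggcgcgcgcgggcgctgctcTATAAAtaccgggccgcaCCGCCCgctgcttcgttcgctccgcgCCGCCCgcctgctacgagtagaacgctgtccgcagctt
AHCYL1 promoter, chr1:109984515-109984814, + strand: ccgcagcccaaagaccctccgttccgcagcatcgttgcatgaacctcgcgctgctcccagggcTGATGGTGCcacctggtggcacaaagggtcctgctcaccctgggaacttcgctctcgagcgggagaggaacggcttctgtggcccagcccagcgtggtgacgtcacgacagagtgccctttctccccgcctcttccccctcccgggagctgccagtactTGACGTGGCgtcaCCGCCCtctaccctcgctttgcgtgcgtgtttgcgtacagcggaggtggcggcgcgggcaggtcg
GNMT promoter, chr6:42960504-42960803, + strand: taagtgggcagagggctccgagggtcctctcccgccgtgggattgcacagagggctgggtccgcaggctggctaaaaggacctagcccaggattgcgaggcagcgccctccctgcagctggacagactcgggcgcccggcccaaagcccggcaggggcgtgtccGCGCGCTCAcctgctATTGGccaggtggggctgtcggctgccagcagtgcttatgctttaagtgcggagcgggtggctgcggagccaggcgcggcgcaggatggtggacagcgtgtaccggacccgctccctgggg
CDO1 promoter, chr5:115816610-115816909, - strand: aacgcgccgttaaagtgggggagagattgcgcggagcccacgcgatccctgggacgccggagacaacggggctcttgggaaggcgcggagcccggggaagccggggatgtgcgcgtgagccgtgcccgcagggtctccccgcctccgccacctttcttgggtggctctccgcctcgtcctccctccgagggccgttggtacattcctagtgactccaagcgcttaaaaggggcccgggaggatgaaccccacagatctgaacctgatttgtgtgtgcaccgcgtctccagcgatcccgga
MAT2A had a TATA box at position −32 from the start, a CCAAT box and 3 GC boxes. AHCYL1 had 2 matches to the antioxidant core and 1 GC box, GNMT had 1 antioxidant core and 1 CCAAT box, and CDO1 had none of the 6. The C/EBP-ATF letters occurred in 0 of the 10 promoters, against 3.67% of all 27305, and the E-box in 0 against 7.44%. The antioxidant core occurred in 4 of 10 (42.1% of all promoters), the CCAAT box in 4 (35.7%), the GC box in 5 (44.6%) and the TATA box in 2, MAT2A and BHMT (11.95%). The RefSeq start of CDO1 lies 295 bases from the gene start in the count files, that of MAT2A 3 bases. These matches describe letters in a window and not factor binding.

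Genes with the most similar pattern over the 12 libraries were found among 11531 genes by the root mean square (RMS) difference of log2 CPM, each gene centred on its own mean. For MAT2A, whose own RMS spread was 0.19, the nearest were NADK2 (RMS difference 0.052), C5 (0.061) and GPAM (0.067). For CDO1, with a spread of 0.46, they were B3GALT9 (0.21), NIPAL1 (0.22) and MSI1 (0.22), and for GNMT, with 0.24, UHRF1, PDIA4 and ZNF780B (0.11 each). AHCY was nearest to HPD (0.023), DBNL (0.026) and DNPEP (0.030), and AHCYL1 to SRP68 (0.038), DENR (0.039) and SLC6A6 (0.041). MAT2B was nearest to NUDT21, FUCA2 and MAGT1 (0.038 to 0.040) and CBS to TRAPPC5, GOLT1A and VSIG10L (0.078 to 0.090).

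Around the cycle, 60 further genes were listed by role, of which 56 were tested. In shTST 15 were called, 1 higher and 14 lower, in overTST 25, with 10 higher and 15 lower, and directly 23, with 7 higher and 16 lower. These are 26.8%, 44.6% and 41.1% of the 56, beside 16.1%, 33.9% and 33.0% of all genes tested, and the counts by role below stand beside the same shares. The overTST count depended on the trend of the counts with gene length. With that trend removed, 14 of the 56 were called in overTST, beside 2047 higher and 2058 lower of all 14421 genes. The list of methionine, cystine and serine supply holds transporters, enzymes of serine synthesis and MARS1. Of its 11 genes 8 were lower and 0 higher in shTST (median log2 −0.21, all genes 0.00), and 6 were lower and 0 higher in overTST (median −0.14).

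SLC7A11, the cystine transporter subunit, had the largest change of the 56 against WT in both lines, at 17.6 CPM in shTST and 19.6 in overTST against 30.7 in WT (log2 −0.81 and −0.65, adjusted p = 7.78e-07 and 1.74e-05, edgeR). MARS1, the methionyl-tRNA synthetase, which uses methionine rather than supplying it, fell in both lines (log2 −0.44 and −0.39). In shTST the amino acid transporter SLC1A5 (log2 −0.38) and PHGDH, the first enzyme of serine synthesis (log2 −0.28), were also lower. In overTST the neutral amino acid transporters SLC1A4 (log2 −0.26) and SLC38A2 (log2 −0.31) were lower. Directly compared, 3 of the 11 were lower in shTST, among them SLC43A2 (log2 −0.28), SLC1A5 (log2 −0.23) and PHGDH (log2 −0.15, a call lost without shTST replicate 1, 2 or 4 or overTST replicate 2, 3 or 4, adjusted p up to 0.177).

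In remethylation and folate entry, 1 of 8 genes was called in shTST, SHMT2, the mitochondrial enzyme that interconverts serine and glycine (log2 −0.29, adjusted p = 0.000127, edgeR). In overTST, 3 of the 8 were called. BHMT2, which methylates homocysteine with S-methylmethionine, was higher (log2 0.38), and MTRR, which reactivates methionine synthase, was lower (log2 −0.35). The call of MTR, methionine synthase itself (log2 −0.15, adjusted p = 0.0405), did not hold, since its sign turned with the gene length trend removed (0.02). Directly, BHMT2 and SHMT2 were lower in shTST (log2 −0.42 and −0.17, the SHMT2 call lost without overTST replicate 3, adjusted p = 0.0633) and MTRR and MTR higher (log2 0.33 and 0.20, the latter with an adjusted p of 0.481 once the length trend was removed).

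Among 14 tested methyltransferases and SAM sensors, 2 were called in shTST, the histone methyltransferases EHMT2 (log2 −0.17) and EZH2 (log2 0.17). The first was lost without WT replicate 2 or 4 or shTST replicate 1 (adjusted p up to 0.121). The second was lost without WT replicate 3 or 4 or shTST replicate 1 or 4 (up to 0.0917), and under an alternative (up to 0.0881). In overTST, 7 of the 14 were called, 4 higher and 3 lower, with the arginine methyltransferases PRMT1 higher (log2 0.23) and PRMT5 lower (log2 −0.26). GAMT of creatine synthesis (log2 0.26) and the DNA methyltransferase DNMT1 (log2 −0.18) lost their calls with the gene length trend removed (adjusted p = 0.163 and 0.512). Directly, 8 of the 14 were called, 4 in each direction, with PRMT1 (log2 −0.24) among those lower in shTST. The direct calls of PEMT, DNMT1 and GAMT were lost under an alternative (adjusted p up to 0.124, 0.119 and 0.0640). Those of HNMT, PRMT5 and EZH2 were lost with 1 library left out (up to 0.0970, 0.0537 and 0.0507, edgeR).

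In polyamine synthesis and methionine salvage, SRM, spermidine synthase, was called in all 3 comparisons. It was higher in overTST (log2 0.26, adjusted p = 0.000269) and lower in shTST than in overTST (log2 −0.40, adjusted p = 1.69e-06). Its call against WT in shTST (log2 −0.14, adjusted p = 0.0399) was lost without WT replicate 2, 3 or 4 or shTST replicate 1, 2 or 4 (adjusted p up to 0.176), and that in overTST with the length trend removed (adjusted p = 0.0588). Of the 9 genes, 1 was called in shTST, 3 in overTST and 2 directly. SMS, spermine synthase (log2 0.17), and AMD1, which makes the aminopropyl donor (log2 −0.15), were called in overTST and not once the length trend was removed (adjusted p = 0.494 and 0.416).

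Of 11 tested genes of cysteine use, 3 were called in shTST, all lower. These were GOT1, the transaminase that also acts on cysteine sulfinate, at 126 CPM against 167 in WT (log2 −0.41, adjusted p = 5.01e-06), SQOR, the first enzyme of mitochondrial sulfide oxidation (log2 −0.33, adjusted p = 0.00796), and GCLM, a subunit of the glutathione-synthesis enzyme (log2 −0.20, adjusted p = 0.0224). The GCLM call was lost without WT replicate 2 or 4 or shTST replicate 3 or 4 (adjusted p up to 0.0784). In overTST 4 were called, GCLC, GCLM and TXNRD1 lower (log2 −0.20, −0.20 and −0.19) and GSS higher (log2 0.17), and none of the 4 held once the length trend was removed (adjusted p = 0.224, 0.120, 0.143 and 0.775). Directly, 5 were called, all lower in shTST, among them SQOR (log2 −0.48), GOT1 (log2 −0.40) and MPST, which makes sulfide from mercaptopyruvate (log2 −0.25). The calls of the remaining GSS and ETHE1 were lost under an alternative (adjusted p up to 0.321 and 0.567).

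Of 3 tested genes of adenosine and homocysteine disposal, none was called in shTST (1 of 4 was too low to test). ADA, which deaminates adenosine, was higher in overTST than in WT (log2 0.33, adjusted p = 0.0123, and 0.0544 with the length trend removed, 0.0572 without WT replicate 1 and 0.0588 without overTST replicate 2) and lower in shTST than in overTST (log2 −0.44, adjusted p = 0.00183). ADK, which phosphorylates adenosine, was called higher in overTST (log2 0.20, adjusted p = 0.025, and 0.102 with the length trend removed and up to 0.115 without WT replicate 2 or overTST replicate 3 or 4).

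**Figure D5:**
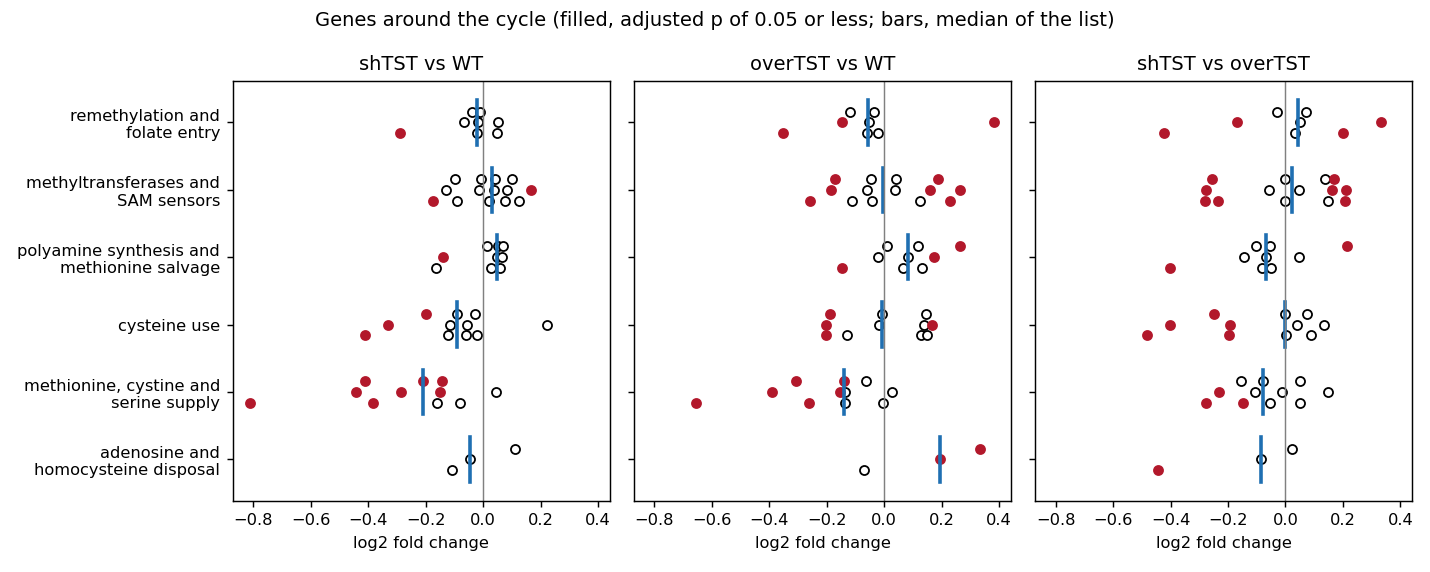
Log2 fold change (x axis) of the 56 tested genes around the cycle, grouped by role, in the 3 comparisons, with filled points for an adjusted p of 0.05 or less and bars for the median of each group of genes. The genes of methionine, cystine and serine supply lie mostly to the left of 0 in both comparisons with WT, with SLC7A11 at −0.81 and −0.65.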

How the data were processed

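RNA sequencing reads of 12 HepG2 libraries (4 each of WT, shTST and overTST) were trimmed, aligned and counted by the authors, and the deposited files hold raw read counts per Ensembl gene with no normalization. The submitters' processing notes name Trimmomatic 0.36, STAR 2.5.2b, featureCounts of Subread 1.5.2 and GRCh38. Whether counting used strand, and how reads with several matches were treated, is not given in the sources used here, which bears on MAT2A, BHMT and CBS. The gene models of the files were compared with GENCODE 29, which holds 56898 of the 57500 identifiers.

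Counts were filtered with filterByExpr, scaled by TMM and tested with the quasi-likelihood test of edgeR 4.0.16 (limma 3.58.1, R 4.3.3), with Benjamini-Hochberg adjustment over all genes tested and a threshold of 0.05. Each comparison with WT used its own 8 libraries, and shTST against overTST used all 12. Standard errors were derived from each log2 fold change and its F statistic, and 95% intervals from the normal quantile. CPM and RPKM came from 1 TMM scaling of the 12 libraries. Alternatives were DESeq2 1.42.0, limma-voom, other scalings, no filter, removal of the trend with gene length, the replicate number as a block, the other set of libraries, CBS and CBSL summed, and leaving out each library. The code was tested on simulated data before use. With 22911380 to 45120508 counts per library, counting error mattered most for genes with few reads, while the biological coefficient of variation was 5.85 to 6.41%. The counting errors given are the inverse square root of a gene's count and cover counting only.

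The 10 genes, the lists around them and the alternatives were chosen with earlier results of these data known. From each list, the called genes with the smallest adjusted p, up to 4 per comparison, are named, except 1 gene that is not reported here. For each member called in any comparison, the 3 genes nearest in pattern are named, among genes with a mean log2 CPM of at least 1, as are genes whose exons overlap a member. METTL16, ETHE1, PEMT, HNMT, ALB, TTR and PECAM1 were named outside this rule, after their values were seen.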

Additional observations from a re-analysis of the deposited data

Results flagged for a closer look

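In 3 of the 30 combinations of gene and group, 1 library stood apart from the other 3 of its group by more than Dixon's 95% critical value for 4 samples, which chance alone passes in about 1 of 20 groups. MAT1A in overTST replicate 2 was at 155 CPM, with the others at 142 to 143. BHMT in shTST replicate 2 was at 5.33 CPM, with the others at 6.05 to 6.09. GNMT in shTST replicate 3 was at 7.65 CPM, with the others at 6.60 to 6.77, and GNMT stayed called in shTST against WT without each library in turn (adjusted p up to 0.0108, edgeR).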

How the results depend on the processing

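The calls of MAT2A, AHCYL1 and CDO1 in overTST, of GNMT in shTST, and of MAT2A, GNMT, AHCY and CDO1 directly held under every alternative and without each library. With the replicate number as a block, 4 of the 10 genes were called in shTST, and 4 with the length correction added, against 2. AHCY (adjusted p = 0.0256, edgeR) and AHCYL1 (0.0270) were the added ones. Calls over all genes in shTST went to 1247 higher and 1733 lower with the block, and to 1406 and 1719 with both, against 975 and 1371. The count in overTST stayed at 3 in both settings. Directly it stayed at 7 with the block, while with the length correction added MAT2B lost its call (adjusted p = 0.0906). Same-numbered libraries correlated at −0.053 to 0.080 in their deviations, so the numbers are not taken as a pairing. With gene length correction 14 genes around the cycle were called in overTST, against 25. Of all genes, 2047 were then called higher and 2058 lower in overTST, against 2265 and 2628. The sign of MTR, which had been called in overTST, turned with length correction alone and then with the block (0.0193 and 0.0195). Signs also turned for some of the 10 genes where they were not called. In shTST this was MAT2B without the filter (−0.0039). In overTST, CTH turned without the filter (−0.0195), with length correction (−0.11) and with it and the block (−0.10). BHMT turned in overTST with length correction and the block (−0.0011). MAT1A (−0.0011 in both) and GNMT (−0.0421 and −0.0417) turned in overTST with length correction alone and then with the block. Outside the 10, METTL16, not called in overTST, also turned there under an alternative (log2 up to 0.067). Leaving out single libraries gave log2 ranges of −0.0255 to 0.0469 (MAT2B, shTST), −0.0516 to 0.0373 (CTH, overTST) and −0.0039 to 0.0526 (MAT1A, overTST). It gave 1 to 3 of the 10 genes in shTST (1 without shTST replicate 1), 3 to 4 in overTST and 4 to 8 directly (4 without overTST replicate 3). Of the genes around the cycle it gave 9 to 13 in shTST (9 without WT replicate 4). Of all genes it gave 1513 to 2336 in shTST (1513 without shTST replicate 1, against 2346). In overTST these were 3979 to 5263, against 4893, and directly 3986 to 5265, against 4907. Upper-quartile scaling changed the split of all genes to 1284 higher and 1151 lower in shTST (975 and 1371 by TMM) and to 2700 and 2292 in overTST (2265 and 2628). Without the filter the splits were 847 and 1558, 1833 and 2786, and directly 2575 and 1850. The causes of these changes were not tested. Depth limits CDO1, GNMT, BHMT and CBS most.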
